A study of Homo sapiens with 44 samples.

Results

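Described here is what tumour necrosis factor (TNF), an inflammatory cytokine, did to RNA levels in A549 cells that received the synthetic glucocorticoid dexamethasone (dex) at the same time. The comparison sets 3 samples given 100 nM dex and 10 ng/ml TNF together for 6 h against 3 samples given 100 nM dex alone for 6 h, which are 6 of the 44 samples of the series. All of these cells carried the control small interfering RNA siNON, a non-targeting pool transfected at 20 nM for 72 h in steroid-depleted medium. Where the response to TNF without hormone is set beside it, the values come from 3 siNON samples given TNF alone and 3 given vehicle (ethanol), also for 6 h. Genes that respond to dex were chosen in a separate arm, in which A549 cells carried a small interfering RNA against the transcriptional cofactor IRF2BP2 (siIRF2BP2, 20 nM, 72 h) and received dex plus TNF, dex, TNF or vehicle, with 3 samples each. A549 is a tumour line of lung adenocarcinoma origin, so the cells stand for 1 line and not for airway tissue. The study calls the replicates biological, but nothing says that they came from separate cultures, so the deposited p-values may measure technical spread. The deposited table holds 1 pooled column for the 3 samples of each group. No spread between replicates could therefore be computed, and a gene is called higher or lower where the authors' deposited FDR (a p-value adjusted over many tests) is under 0.05.

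TNF binds its receptors on the cell surface and frees the transcription factor NF-kB from inhibitory IkB proteins, after which NF-kB switches on genes for chemokines, cytokines, adhesion molecules and survival proteins, and also for its own inhibitors. Dex binds the glucocorticoid receptor, which moves to the nucleus, raises one set of genes at DNA sites of its own and lowers many inflammatory genes. Lung epithelial cells are among the targets of glucocorticoids in inflammatory airway disease, and A549 cells are widely used to study how both signals meet.

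The pooled columns rest on 48.9 M tags (M for mega, reads assigned to transcripts) with dex plus TNF, 56.9 M with dex, 43.3 M with TNF and 56.9 M with vehicle. Levels are FPKM, fragments per kilobase of length, scaled to the tags of the column, where the length is nearly always the genomic span of the transcript, so genes with long introns have low FPKM. With 1 transcript kept per gene symbol, 13677 of 25689 symbols had at least 1 CPM (reads scaled to the depth of the column) in either column and were tested. The A549 markers fit the label. All 9 that the table lists were above that level, with a summed level of 18884 CPM with dex plus TNF and 23191 with dex. The 18 markers of blood, endothelial and fibroblast cells summed to 82.1 CPM with dex plus TNF and 97.7 with dex, with PTPRC, CD3E, VWF and COL1A2 among those at 0 in both columns. IRF2BP2, the gene targeted in the other arm, stood at 25.4 FPKM with dex plus TNF and 31.3 FPKM with dex (FDR 0.171 in the authors' deposited table) and was not called.

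TNF kept a large effect in the presence of dex. Of the 13677 genes tested, 996 (7.28%) were higher and 666 (4.87%) were lower with dex plus TNF than with dex. In bulk RNA, fewer cells that express a gene and less RNA per cell cannot be told apart. The rises were the larger changes: 356 genes (2.6%) rose and 78 (0.57%) fell by at least 1 on the log2 scale, which is 2-fold, and 129 rose and 2 fell by at least 2 on that scale. In the authors' deposited table the median log2 fold change was 0.75 among the higher genes, -0.59 among the lower genes and -0.01 over all genes tested. The 15 named rises, those with the largest fold among genes with at least 5 CPM in the higher column, had ratios of pooled FPKM between 19.6 and 325. Some of these 15 had few reads with dex, such as LTB with 1 and PTX3 and UBD with 5 each, so their ratios are imprecise. Others had many, such as SOD2 with 5657 and CXCL8 with 1960. All 15 were also higher with TNF than with vehicle, so each responded with and without the hormone. In 9 of the 15 the level with dex plus TNF was below that with TNF alone, and in 6 it was above.

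The largest rise belonged to LTB, lymphotoxin beta, a membrane-bound member of the TNF family (chromosome 6, 31548336 to 31550202, minus strand, build hg19). It stood at 2.92 FPKM with dex plus TNF and 0.009 FPKM with dex, and at 18.3 FPKM with TNF and 0.019 FPKM with vehicle. The dex column held only 1 read of LTB against 267 reads with dex plus TNF, so the ratio per tag of 310 has a 95% counting interval of 55.2 to 12307. ICAM1, the adhesion molecule that leukocytes hold on to (chromosome 19, 10381517 to 10397291, plus strand, build hg19), rested on many more reads, 15736 with dex plus TNF and 96 with dex. Its level was 20.4 FPKM with dex plus TNF and 0.107 FPKM with dex, a 191-fold difference, and 40.9 FPKM with TNF and 0.208 FPKM with vehicle, a 197-fold difference. TNF thus multiplied ICAM1 by nearly the same factor with and without dex, while the level reached with dex plus TNF was 0.498 of that with TNF alone. UBD, a ubiquitin-like protein, had 1.54 FPKM with dex plus TNF and 0.020 FPKM with dex, and PI3, the elastase inhibitor elafin, had 5.90 FPKM with dex plus TNF and 0.299 FPKM with dex.

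**Figure D1:**
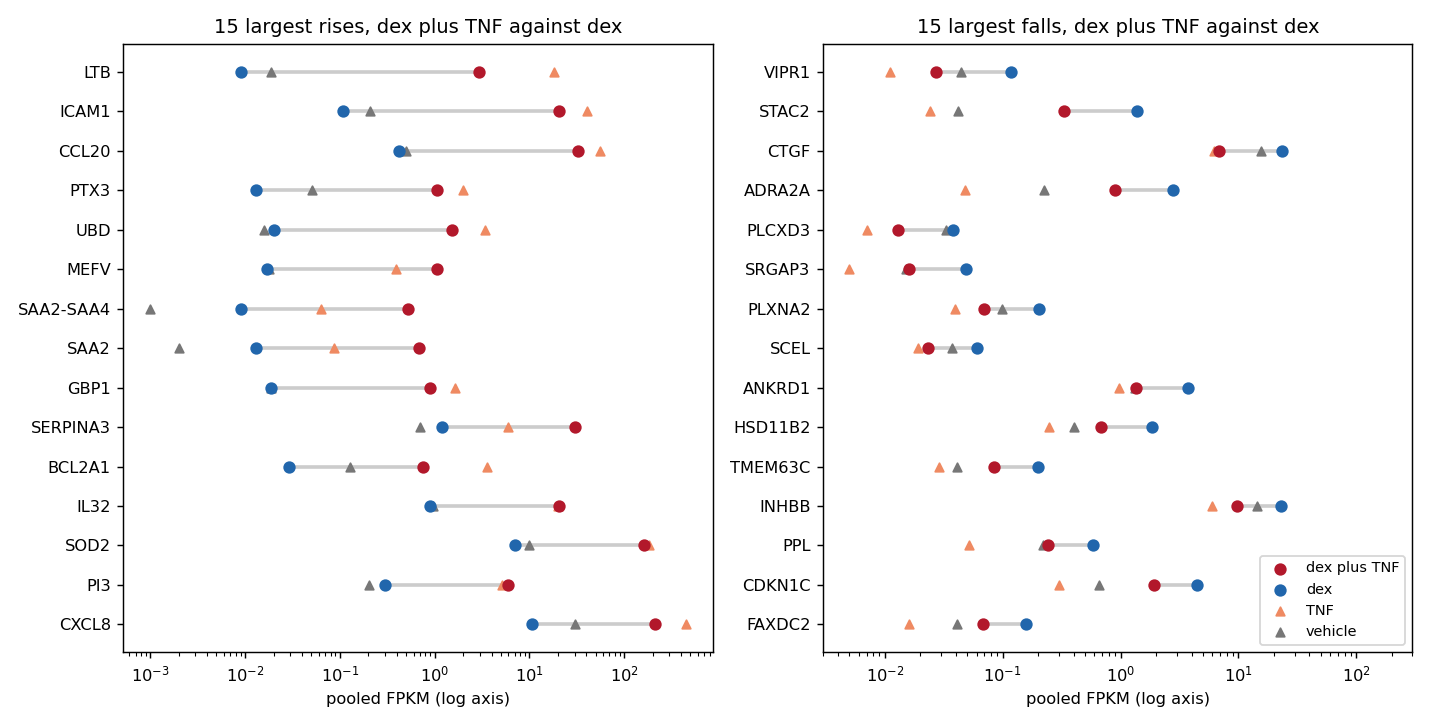
Pooled FPKM (log axis) of the 15 largest rises (left) and the 15 largest falls (right) with dex plus TNF (red circles) against dex (blue circles), with TNF (orange triangles) and vehicle (grey triangles) beside them; grey bars join the pair compared. Ratios of dex plus TNF over dex run from 19.6 to 325 among the rises and from 0.229 to 0.433 among the falls.

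The promoters of 4 of the strongest risers are shown because their letters hold the short motif that NF-kB is known to bind. The sequences are from RefSeq on build GRCh38.p14 and run from 250 bases before to 50 bases after the start of the gene, 5′ to 3′ on the gene's strand. Capitals mark GGNNNTTCC, searched on both strands, so that GGAANNNCC also counts. LTB lies at chr6:31582376-31582675 (minus strand), ICAM1 at chr19:10270870-10271169 (plus strand), CXCL10 at chr4:76023448-76023747 (minus strand) and CCL20 at chr2:227813592-227813891 (plus strand).
LTB: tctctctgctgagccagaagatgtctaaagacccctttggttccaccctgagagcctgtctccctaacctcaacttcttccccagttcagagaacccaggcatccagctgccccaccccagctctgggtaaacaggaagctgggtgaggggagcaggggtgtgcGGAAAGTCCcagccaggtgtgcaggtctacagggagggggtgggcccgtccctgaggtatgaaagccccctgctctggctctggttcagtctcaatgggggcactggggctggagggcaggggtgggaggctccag
ICAM1: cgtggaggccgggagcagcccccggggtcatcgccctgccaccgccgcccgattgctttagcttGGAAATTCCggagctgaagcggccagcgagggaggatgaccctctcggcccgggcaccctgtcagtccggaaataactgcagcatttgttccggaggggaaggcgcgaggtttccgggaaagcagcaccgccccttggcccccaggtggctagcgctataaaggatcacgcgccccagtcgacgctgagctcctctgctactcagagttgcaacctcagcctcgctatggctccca
CXCL10: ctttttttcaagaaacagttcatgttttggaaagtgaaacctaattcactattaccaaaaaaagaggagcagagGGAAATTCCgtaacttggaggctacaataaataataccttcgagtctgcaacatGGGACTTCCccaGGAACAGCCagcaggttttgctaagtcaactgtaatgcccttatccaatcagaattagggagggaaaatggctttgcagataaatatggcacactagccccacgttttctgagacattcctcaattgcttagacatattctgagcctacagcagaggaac
CCL20: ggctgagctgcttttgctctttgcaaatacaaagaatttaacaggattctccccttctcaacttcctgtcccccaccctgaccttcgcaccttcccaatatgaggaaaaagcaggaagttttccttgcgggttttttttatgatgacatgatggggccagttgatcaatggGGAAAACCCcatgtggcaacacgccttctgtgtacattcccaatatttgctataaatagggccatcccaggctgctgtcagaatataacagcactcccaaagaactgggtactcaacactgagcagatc
In LTB the match GGAAAGTCC began 86 bases before the start, in ICAM1 GGAAATTCC began 186 bases before it, and in CCL20 GGAAAACCC began 79 bases before it. CXCL10 had 3 matches, GGAAATTCC, GGGACTTCC and GGAACAGCC, beginning 176, 122 and 110 bases before the start. Of the 15 named rises, 12 had a promoter entry and 10 of those held a match. Among all 27305 RefSeq promoters 20.1% hold one, so the motif is common, and these genes were chosen for their fold. The glucocorticoid receptor motif, GNACA and TGTNC with any 3 bases between them (its own reverse complement), occurred in none of those 12 promoters and in 0.388% of all promoters. Only 10882 of the 13677 genes tested matched an entry, under 80%, so shares over the called genes are not given. A match is a description of letters and shows no binding.

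Chemokines, the secreted proteins that draw leukocytes into tissue, were the list with the largest share of rises among the members tested. Of 11 tested, 10 rose and none fell, with a median log2 fold change of 3.03 in the authors' deposited table, against -0.01 over all genes tested. Each list is read beside the 7.28% higher and 4.87% lower among all genes tested. Of the 20 listed, 9 were below the level tested. As 1 CPM in either column was enough, some members of this and other lists entered only through the column where they are high. CXCL10, at 1.23 CPM with dex plus TNF and 0 with dex, is an example, and this can raise the share called higher. CXCL8, the neutrophil attractant interleukin-8 (chromosome 4, 74606223 to 74609433, plus strand, build hg19), stood at 211 FPKM with dex plus TNF and 10.7 FPKM with dex, and at 447 FPKM with TNF and 30.6 FPKM with vehicle. CCL2, which attracts monocytes, stood at 35.4 FPKM with dex plus TNF and 2.31 FPKM with dex, and at 139 FPKM with TNF and 7.70 FPKM with vehicle. CXCL1, another neutrophil attractant, stood at 52.9 FPKM with dex plus TNF and 7.28 FPKM with dex, and at 166 FPKM with TNF and 30.5 FPKM with vehicle. For all 3 the folds over their own baseline, which have no replicate error, were of similar size with and without hormone (19.6 and 14.6 for CXCL8, 15.3 and 18.1 for CCL2, 7.27 and 5.43 for CXCL1), and both baseline and end level were lower with dex.

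Other chemokines rose as well. CCL20, which attracts cells with the receptor CCR6, rose 78.2-fold to 32.9 FPKM with dex plus TNF, against 0.421 FPKM with dex. CX3CL1, fractalkine, reached 0.376 FPKM with dex plus TNF, against 0.029 FPKM with dex. CXCL10, an attractant of T cells, had 60 reads with dex plus TNF and 0 with dex, at least 23.3-fold higher when the dex column is set to 3 reads over the pooled column. CXCL16 was the member not called, at 4.05 FPKM with dex plus TNF and 4.80 FPKM with dex. Each of the 11 was lower with dex plus TNF than with TNF alone, 10 of them past the threshold, where 8.8% of all genes were called lower in that comparison. These comparisons share the dex plus TNF column, so they are given side by side only.

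Among inflammatory cytokines and growth factors, 12 of 20 tested rose and 2 fell, with a median log2 fold change of 0.80 in the authors' deposited table. Of the 31 listed, 11 were below the level tested, and IL6, IL1B and LTB passed it only with dex plus TNF. IL6, the main inducer of acute phase proteins in the liver, stood at 1.01 FPKM with dex plus TNF and 0.025 FPKM with dex, and at 3.33 FPKM with TNF and 0.083 FPKM with vehicle. IL32 reached the same level with dex as without it, 20.8 FPKM with dex plus TNF and 0.897 FPKM with dex, beside 19.8 FPKM with TNF and 0.957 FPKM with vehicle. EBI3, a subunit shared by interleukin-27 and interleukin-35, was highest with both agents, at 2.91 FPKM with dex plus TNF and 0.185 FPKM with dex, and at 1.48 FPKM with TNF and 0.167 FPKM with vehicle. IL1B stood at 0.311 FPKM with dex plus TNF and 0.028 FPKM with dex. CSF1, the growth factor of macrophages, stood at 4.65 FPKM with dex plus TNF and 0.731 FPKM with dex. The 2 that fell, named after their values were seen, were HBEGF, which activates the EGF receptor (0.404 FPKM with dex plus TNF and 0.575 FPKM with dex), and IL11 (0.447 FPKM with dex plus TNF and 0.902 FPKM with dex). TNF itself, also named after its values were seen, was below the level tested, at 0.293 FPKM with dex plus TNF and 0.007 FPKM with dex, and at 1.24 FPKM with TNF and 0.007 FPKM with vehicle. TGFB1, IL18 and VEGFA were not called.

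The TNF pathway itself changed at several steps. Of 35 genes for TNF receptors and their signalling proteins, 14 rose and 1 fell. TNFRSF9, the receptor 4-1BB, had 0.247 FPKM with dex plus TNF and 0.016 FPKM with dex, and reached 1.08 FPKM with TNF alone, against 0.021 FPKM with vehicle. TNFRSF1B, the second TNF receptor, had 0.111 FPKM with dex plus TNF and 0.013 FPKM with dex. The kinase IKBKE rose 6.72-fold, to 2.47 FPKM with dex plus TNF, against 0.367 FPKM with dex, and the adaptor TRAF3 rose 2.34-fold. The decoy receptor TNFRSF11B rose 2.71-fold, to 0.046 FPKM with dex plus TNF, against 0.017 FPKM with dex, and was far below its 0.224 FPKM with TNF and 0.096 FPKM with vehicle. TNFRSF1A, the main TNF receptor, was the member that fell and was named after its values were seen: 19.6 FPKM with dex plus TNF and 27.1 FPKM with dex, beside 15.8 FPKM with TNF and 25.5 FPKM with vehicle.

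Of 21 NF-kB subunits and feedback inhibitors, 18 rose and none fell, with a median log2 fold change of 1.38 in the authors' deposited table. NFKBIA encodes IkB alpha, which holds NF-kB in the cytoplasm, and is known to be induced by TNF and by glucocorticoids (chromosome 14, 35870716 to 35873960, minus strand, build hg19). It was highest with both agents, at 170.0 FPKM with dex plus TNF and 68.4 FPKM with dex, and at 143 FPKM with TNF and 26.2 FPKM with vehicle. The ubiquitin-editing inhibitor TNFAIP3 (A20) followed the same order, at 17.8 FPKM with dex plus TNF and 1.60 FPKM with dex, and at 14.5 FPKM with TNF and 0.993 FPKM with vehicle. TNFAIP3 overlaps LOC100130476, and strand use in counting is not given in the sources used here, so reads of such overlapping genes cannot be told apart.

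TNIP1, a partner of A20, was also highest with both agents, at 19.7 FPKM with dex plus TNF and 3.58 FPKM with dex, and at 16.5 FPKM with TNF and 3.05 FPKM with vehicle. The subunits NFKB2 and RELB had 57.6 and 4.87 FPKM with dex plus TNF, against 5.54 and 0.741 FPKM with dex. NFKBIE, another IkB protein, rose 7.07-fold. TNFAIP2 rose 14.4-fold to 268 FPKM with dex plus TNF, against 18.6 FPKM with dex. Not called were ZC3H12A, an RNase that degrades cytokine messages (16.05 FPKM with dex plus TNF and 13.8 FPKM with dex), TANK and OTUD7B. ZC3H12A stood at 9.84 FPKM with TNF and 4.93 FPKM with vehicle, so its levels with dex, with or without TNF, were the higher pair.

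Of 13 adhesion molecules 7 rose and none fell. ITGB8, an integrin subunit, rose 3.58-fold, NINJ1 3.005-fold to 13.7 FPKM with dex plus TNF, against 4.56 FPKM with dex, and ITGAV, a partner of ITGB8, 1.65-fold. CD44, CEACAM6 and PVR were not called. VCAM1, a further leukocyte ligand, was below the level tested, with 21 reads with dex plus TNF and 1 with dex (a ratio per tag of 24.4 with a 95% counting interval of 3.93 to 1009.7), and had 0.314 FPKM with TNF and 0.004 FPKM with vehicle.

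Of 23 regulators of cell survival and death 8 rose and none fell. SOD2, the mitochondrial superoxide dismutase (chromosome 6, 160100149 to 160114353, minus strand, build hg19), had 161 FPKM with dex plus TNF and 7.004 FPKM with dex, and 181 FPKM with TNF and 9.90 FPKM with vehicle. BCL2A1, a protective BCL2 relative, had 0.746 FPKM with dex plus TNF and 0.029 FPKM with dex, and 3.58 FPKM with TNF and 0.128 FPKM with vehicle. CFLAR, an inhibitor of caspase-8, rose 2.13-fold, and the pro-death genes BID and PMAIP1 rose 1.92-fold and 1.64-fold. MCL1, BCL2L1 and PIM3 were not called, and MCL1 was above vehicle in each treated column, at 131 FPKM with dex plus TNF and 143 FPKM with dex, and at 87.1 FPKM with TNF and 63.2 FPKM with vehicle.

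Most of the interferon-related genes tested rose, and nearly all had a lower level than with TNF alone. Of 32 interferon regulatory factors and interferon-stimulated genes 21 rose, none fell and 11 were not called, while 10 of the 42 listed were below the level tested. IRF1, a transcription factor that TNF and interferon gamma induce, had 13.1 FPKM with dex plus TNF and 1.501 FPKM with dex, and 19.9 FPKM with TNF and 1.98 FPKM with vehicle. The guanylate-binding protein GBP1 had 0.894 FPKM with dex plus TNF and 0.019 FPKM with dex, and the RNA sensor IFIH1 had 0.359 FPKM with dex plus TNF and 0.045 FPKM with dex. IFIT3 and IFIT2, which bind foreign RNA, rose 5.61-fold and 4.55-fold. Of 31 members tested with and without dex, 30 had a lower FPKM with dex plus TNF than with TNF, 21 of them past the threshold. Among all 13498 genes tested in both, 6305 had a lower FPKM and 1153 were called lower. OAS1 and IRF3 were not called, and IRF3 overlaps BCL2L12.

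Of 20 genes of the MHC class I pathway, which shows peptides of the cell's own proteins to T cells, 15 rose and none fell. PSMB9, an immunoproteasome subunit, had 3.46 FPKM with dex plus TNF and 0.563 FPKM with dex. The peptide transporter TAP1 had 23.7 FPKM with dex plus TNF and 5.65 FPKM with dex, above its 15.5 FPKM with TNF and 5.06 FPKM with vehicle, and overlaps PSMB8-AS1. ERAP2, a peptidase that trims peptides, rose 3.74-fold, TAPBP 1.84-fold and TAP2 1.80-fold. CALR, PDIA3 and HLA-E were not called. HLA genes are close paralogs, so reads can be split among them by the counting.

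Innate immune sensors rose in 9 of 16 and fell in none, while 6 of the 22 listed were below the level tested. MEFV, pyrin, a sensor that forms inflammasomes, was highest with both agents: 1.06 FPKM with dex plus TNF and 0.017 FPKM with dex, and 0.394 FPKM with TNF and 0.018 FPKM with vehicle. MEFV passed the level tested only with dex plus TNF, at 15.4 CPM, against 0.248 CPM with dex, and such entries can raise the share called higher. NOD2, a sensor of bacterial cell wall, had 0.126 FPKM with dex plus TNF and 0.003 FPKM with dex. TLR2, which senses bacterial lipoproteins, had 0.112 FPKM with dex plus TNF and 0.016 FPKM with dex, and 0.071 FPKM with TNF and 0.006 FPKM with vehicle. The signalling kinase IRAK2 rose 7.30-fold, and IRAK3, a brake on Toll-like receptor signalling, rose 5.12-fold. Of 30 cytokine receptors with their signalling proteins 15 rose and 2 fell. STAT5A, a transcription factor of cytokine signalling, had 4.70 FPKM with dex plus TNF and 0.415 FPKM with dex. The receptor chains IL15RA, IFNAR2 and IFNGR2 rose 8.31-fold, 3.52-fold and 2.82-fold. The 2 that fell, IL6R (1.48 FPKM with dex plus TNF and 1.97 FPKM with dex) and LIFR (0.255 FPKM with dex plus TNF and 0.323 FPKM with dex), were named after their values were seen.

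**Figure D2:**
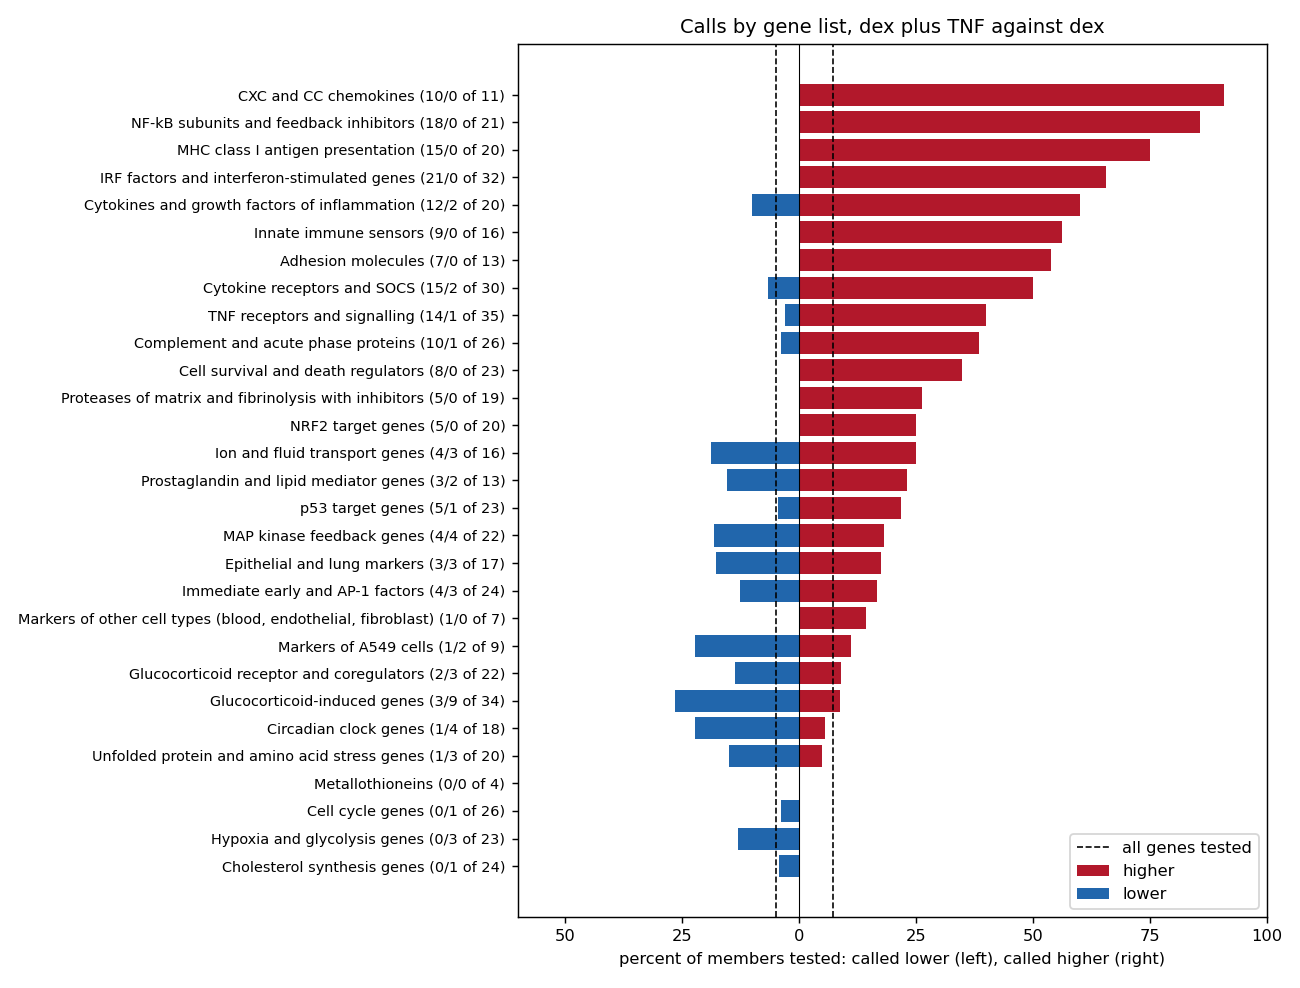
Share of the members tested that were called higher (red, right) or lower (blue, left) with dex plus TNF against dex, in percent, for 29 gene lists, with higher/lower counts beside each name; dashed lines mark all genes tested (7.28% higher, 4.87% lower). Chemokines (10 of 11) and NF-kB subunits and inhibitors (18 of 21) had the highest shares called higher, and glucocorticoid-induced genes (9 of 34) had the highest share called lower.

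Complement and acute phase genes included several at a higher level with both agents than with either alone. Of 26 tested 10 rose and 1 fell. SERPINA3, the protease inhibitor alpha-1-antichymotrypsin (chromosome 14, 95078714 to 95090390, plus strand, build hg19), stood at 30.2 FPKM with dex plus TNF and 1.19 FPKM with dex, and at 5.91 FPKM with TNF and 0.700 FPKM with vehicle. Its ratio was 25.4 with dex and 8.45 without dex. SAA1, serum amyloid A, had 1.86 FPKM with dex plus TNF and 0.104 FPKM with dex, and 0.106 FPKM with TNF, while it was listed at 0 with vehicle. SAA2 had 0.681 FPKM with dex plus TNF and 0.013 FPKM with dex, and 0.086 FPKM with TNF and 0.002 FPKM with vehicle. SAA4 had 61 reads with dex plus TNF and 0 with dex, at least 23.6-fold higher against 3 reads over the pooled column. SAA1 and SAA2 are nearly identical copies, and SAA2, SAA4 and the read-through SAA2-SAA4 overlap, so the split of reads among them is uncertain.

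Other members of the list differed in how their levels with both agents and with TNF alone compared. PTX3, a pentraxin that tags microbes, had 1.05 FPKM with dex plus TNF and 0.013 FPKM with dex, and 1.98 FPKM with TNF and 0.051 FPKM with vehicle. PTX3 overlaps VEPH1. CFB, complement factor B, had 11.3 FPKM with dex plus TNF and 2.02 FPKM with dex, and 10.8 FPKM with TNF and 2.32 FPKM with vehicle. FGA, a fibrinogen chain, was the member that fell, at 15.05 FPKM with dex plus TNF and 19.7 FPKM with dex, and was named after its values were seen. CLU, CD46 and CP were not called.

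PLAU and PTGS2 reached far higher levels with TNF alone than with both agents. Of 19 proteases and inhibitors 5 rose and none fell. PLAU, urokinase, had 27.9 FPKM with dex plus TNF and 11.7 FPKM with dex, and 96.2 FPKM with TNF and 17.1 FPKM with vehicle, ratios of 2.38 and 5.64. SERPINE2, a protease inhibitor, rose 1.27-fold with dex, and its ratio without dex was 1.89. Of 13 prostaglandin and lipid mediator genes 3 rose and 2 fell. PTGS2, the inducible cyclooxygenase (chromosome 1, 186640944 to 186649559, minus strand, build hg19), had 128 FPKM with dex plus TNF and 106 FPKM with dex, which was not called (FDR 0.747 in the authors' deposited table). Without dex it was called higher, at 424 FPKM with TNF and 172 FPKM with vehicle. PLA2G4C, a phospholipase, and PTGES, a prostaglandin E synthase, rose 4.59-fold and 1.70-fold with dex, and PTGER2, a prostaglandin E receptor, fell to 0.297 FPKM with dex plus TNF, against 0.585 FPKM with dex.

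The other question was what TNF did to genes that dex induces. These were taken from the siIRF2BP2 cells, where 469 genes (3.38%) were higher with dex than with vehicle by at least 1 on the log2 scale. That choice used none of the samples compared here. Of the 442 tested in siNON cells, TNF lowered 137 (31.0%, against 4.87% of all genes) and raised 67 (15.2%, against 7.28%), and 238 were not called. The falls were moderate: their median log2 fold change in the authors' deposited table was -0.68 and the lowest was -2.13, and 34 of the 137 fell by at least 1. Of the 67 that rose, 29 rose by at least 1. By the size of the FPKM ratio alone, with 0.1 added to each value and at least 2-fold, 12 were lower and 18 higher. Of the 137, 111 kept a pooled FPKM above vehicle with dex plus TNF, and 26 were at or below it. TNF without dex also lowered 63 of the 137 (background 11%) and raised 3 (background 11.8%).

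**Figure D3:**
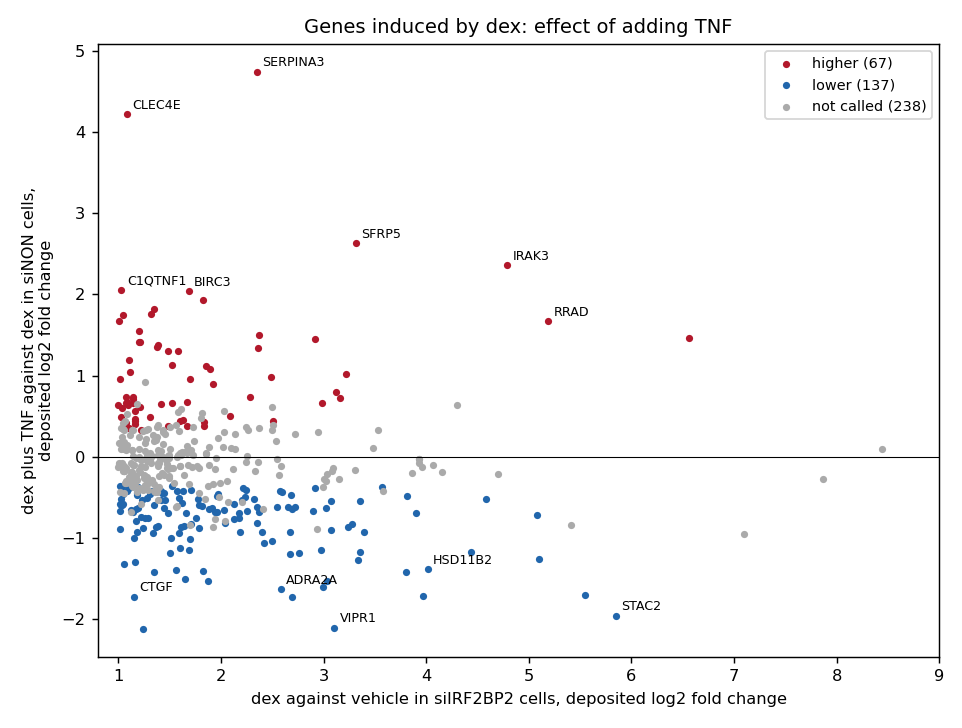
Deposited log2 fold change of dex plus TNF against dex in siNON cells (vertical axis) against that of dex against vehicle in siIRF2BP2 cells (horizontal axis) for the 442 dex-induced genes tested. Of these, 67 were called higher (red), 137 lower (blue) and 238 neither (grey), and genes far to the right, with the largest dex response, lie both above and below 0.

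Genes that dex lowered in siIRF2BP2 cells, by at least 1 on the log2 scale, were 238 (1.72%), and 198 of them were tested with dex plus TNF against dex in siNON cells. TNF raised 46 of these (23.2%, against 7.28% of all genes) and lowered 29 (14.6%, against 4.87%). Of 57 genes induced by dex and by TNF in siIRF2BP2 cells, 37 (64.9%) were higher and 1 (1.75%) was lower with dex plus TNF than with dex. TNF lowered 547 genes (3.94%) by at least 1 in siIRF2BP2 cells. Of 53 of these that dex induced, 46 (86.8%) were lower and 1 (1.89%) was higher. The sets of 57 and 53 were picked by their TNF direction in siIRF2BP2 cells, so the same direction here is a description only.

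Of the 15 named falls 13 were in the dex-induced set chosen in siIRF2BP2 cells. All 15 had more FPKM with dex than with vehicle in siNON cells, but the falls were chosen against that same dex column, so this count is a description only. With dex plus TNF 9 of the 15 stayed above vehicle and 6 were below it. STAC2, an adaptor of calcium channels (chromosome 17, 37366789 to 37382040, minus strand, build hg19), had 0.332 FPKM with dex plus TNF and 1.37 FPKM with dex, and 0.024 FPKM with TNF and 0.042 FPKM with vehicle. ADRA2A, the alpha-2A adrenergic receptor (chromosome 10, 112836790 to 112840662, plus strand, build hg19), had 0.892 FPKM with dex plus TNF and 2.79 FPKM with dex, and 0.048 FPKM with TNF and 0.223 FPKM with vehicle. Both lost most of their dex level and stayed above vehicle.

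CTGF, a matrix-associated growth regulator known as a target of YAP and TEAD (chromosome 6, 132269317 to 132272518, minus strand, build hg19), was cut to below vehicle. It had 6.80 FPKM with dex plus TNF and 23.2 FPKM with dex, and 6.19 FPKM with TNF and 15.5 FPKM with vehicle. ANKRD1, another known YAP and TEAD target, had 1.36 FPKM with dex plus TNF and 3.75 FPKM with dex, and 0.962 FPKM with TNF and 1.32 FPKM with vehicle. INHBB, a subunit of activin B and inhibin B, had 9.73 FPKM with dex plus TNF and 22.9 FPKM with dex, and 6.03 FPKM with TNF and 14.4 FPKM with vehicle. VIPR1, a receptor for vasoactive intestinal peptide, had 0.027 FPKM with dex plus TNF and 0.118 FPKM with dex, on 64 reads with dex plus TNF and 324 with dex.

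HSD11B2, the enzyme that turns cortisol into inactive cortisone (chromosome 16, 67465036 to 67471454, plus strand, build hg19), had 0.684 FPKM with dex plus TNF and 1.84 FPKM with dex, and 0.245 FPKM with TNF and 0.400 FPKM with vehicle. HSD11B1, known for the opposite reaction, rose to 0.072 FPKM with dex plus TNF, against 0.030 FPKM with dex. CDKN1C, the cell cycle inhibitor p57, had 1.91 FPKM with dex plus TNF and 4.49 FPKM with dex, and 0.299 FPKM with TNF and 0.656 FPKM with vehicle. The cytoskeletal linker PPL, the semaphorin receptor PLXNA2, SRGAP3, SCEL, PLCXD3, TMEM63C and FAXDC2 fell to between 0.327 and 0.433 of their dex level.

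The 67 dex-induced genes that TNF raised were chosen with dex plus TNF above dex in siNON cells, so that order is given by the choice. Dex above vehicle was required in siIRF2BP2 cells only. Of the 10 largest rises among them, 7 were called higher with dex than with vehicle in siNON cells. C1QTNF1, GFRA1 and PLXNC1 were not. In 62 of the 67 the FPKM with dex plus TNF was above each of the dex, TNF and vehicle columns. TNF without dex raised 40 of them (background 11.8%), lowered 2 and left 25 not called. After SERPINA3, the largest rise was that of CLEC4E, a receptor for fungal and mycobacterial glycolipids, with 4.89 FPKM with dex plus TNF and 0.273 FPKM with dex, and 2.20 FPKM with TNF and 0.087 FPKM with vehicle. SFRP5, a secreted inhibitor of Wnt, had 2.38 FPKM with dex plus TNF and 0.389 FPKM with dex, and 0.216 FPKM with TNF and 0.121 FPKM with vehicle. BIRC3, an inhibitor of apoptosis that takes part in TNF receptor signalling (chromosome 11, 102188181 to 102210135, plus strand, build hg19), had 32.8 FPKM with dex plus TNF and 7.90 FPKM with dex, and 19.7 FPKM with TNF and 2.997 FPKM with vehicle.

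IRAK3 had 0.665 FPKM with dex plus TNF and 0.130 FPKM with dex, and 0.063 FPKM with TNF and 0.003 FPKM with vehicle. C1QTNF1, a secreted relative of adiponectin, rose 3.87-fold with dex and had a ratio of 3.66 without it. RRAD, a Ras-related GTPase, had 4.96 FPKM with dex plus TNF and 1.60 FPKM with dex, and 0.557 FPKM with TNF and 0.187 FPKM with vehicle. CD38, an enzyme that consumes NAD, had 1.20 FPKM with dex plus TNF and 0.357 FPKM with dex, and 0.499 FPKM with TNF and 0.271 FPKM with vehicle. GFRA1, a co-receptor of the growth factor GDNF, and the semaphorin receptor PLXNC1 rose 3.54-fold and 3.10-fold.

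**Figure D4:**
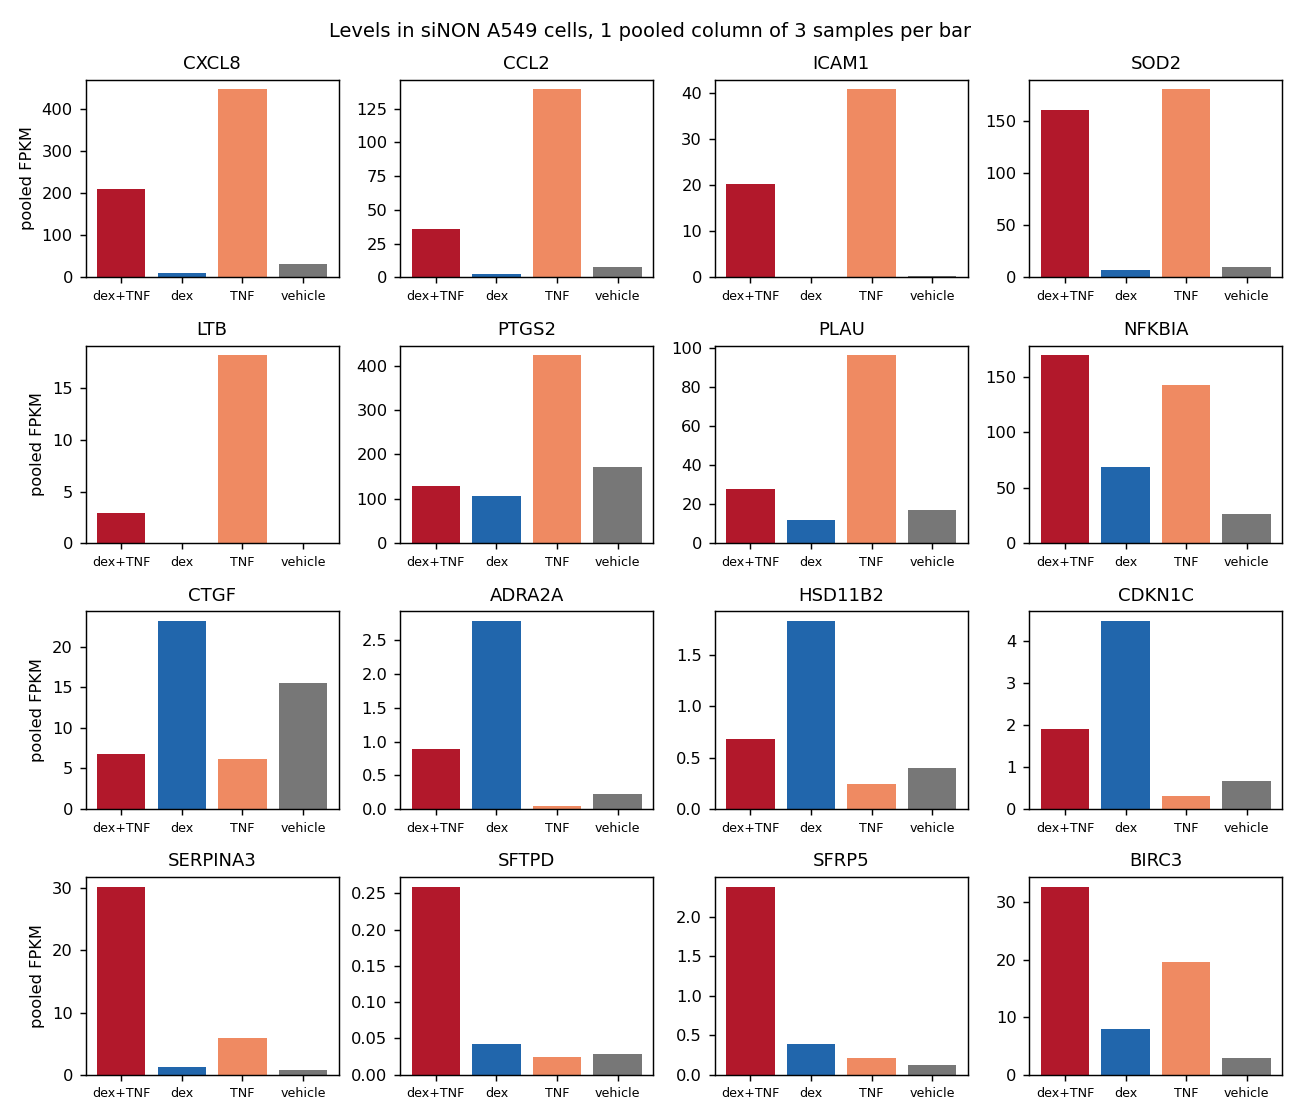
Pooled FPKM (vertical axes, from 0) of 16 genes with dex plus TNF, dex, TNF and vehicle, 1 pooled column of 3 samples per bar. The upper 2 rows show TNF-induced genes, most of them lower with dex plus TNF than with TNF, the third row dex-induced genes that TNF lowered, and the bottom row genes at their highest level with both agents, such as SERPINA3 at 30.2 FPKM.

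A written list of known glucocorticoid-induced genes was also described: of 34 tested 9 fell, 3 rose and 22 were not called. Their median log2 fold change in the authors' deposited table was -0.17, beside -0.18 over the 442 dex-induced genes. Several well-known hormone targets were among those not called. DUSP1, the phosphatase that shuts off MAP kinases, had 225 FPKM with dex plus TNF and 295 FPKM with dex, and 55.1 FPKM with TNF and 64.9 FPKM with vehicle, and was not called. FKBP5, a chaperone that restrains the glucocorticoid receptor, had 2.16 FPKM with dex plus TNF and 2.29 FPKM with dex, and 0.107 FPKM with TNF and 0.138 FPKM with vehicle. PER1, PDK4 and ANXA1 were not called either. The FDR of DUSP1 was 0.0743 in the authors' deposited table. In siIRF2BP2 cells FKBP5, PDK4 and ANXA1 were called lower with dex plus TNF than with dex, while DUSP1 and PER1 were not called. The deposited log2 fold changes there were -0.28 for FKBP5 (FDR 2.01e-05), -0.35 for PDK4 (FDR 3.93e-05) and -0.29 for ANXA1 (FDR 2.58e-05). A missing call in siNON cells therefore does not show an unchanged level. In siNON cells METTL7A fell to 0.203 FPKM with dex plus TNF, against 0.492 FPKM with dex. CIDEC, a lipid droplet protein, fell to 4.90 FPKM with dex plus TNF, against 9.78 FPKM with dex. The 3 that rose were NFKBIA and TNFAIP3, which are also NF-kB targets, and FAM107A, on 56 reads with dex plus TNF and 11 reads with dex.

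Of 22 genes for the glucocorticoid receptor, its chaperones and coregulators 2 rose and 3 fell, which is 9.09% and 13.6%, against 7.28% and 4.87% of all genes. The coactivator NCOA3 fell to 1.87 FPKM with dex plus TNF, against 2.36 FPKM with dex. The chaperones HSP90AB1 and HSP90AA1 were not called. None of the 4 metallothioneins tested, which bind metal ions and are induced by glucocorticoids, was called: MT2A had 564 FPKM with dex plus TNF and 507 FPKM with dex, and 54.4 FPKM with TNF and 55.2 FPKM with vehicle. Of 18 clock genes 1 rose (5.56%, below the share of all genes) and 4 fell (22.2%), with ARNTL2 2.02-fold higher and DBP at 0.585 and HLF at 0.545 of the dex level.

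Early response and MAP kinase feedback genes moved in either direction. Of 24 immediate early and AP-1 genes 4 rose (16.7%, against 7.28% of all genes) and 3 fell (12.5%, against 4.87%). KLF4, a transcription factor of epithelial differentiation, had 23.4 FPKM with dex plus TNF and 10.7 FPKM with dex, and 7.66 FPKM with TNF and 5.91 FPKM with vehicle. FOS, a subunit of AP-1, fell to 27.7 FPKM with dex plus TNF, against 44.0 FPKM with dex, beside 9.80 FPKM with TNF and 22.8 FPKM with vehicle. JUN fell to 40.5 FPKM with dex plus TNF, against 58.0 FPKM with dex. CEBPB, KLF6 and FOSL2 were not called. Of 22 MAP kinase feedback genes 4 rose (18.2%) and 4 fell (18.2%). The inhibitor SPRY2 and the phosphatase DUSP4 were at 0.552 and 0.634 of the dex level. ZFP36L1 was 1.45-fold higher, and ZFP36 and ERRFI1 were not called.

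Lung and epithelial genes were mixed. Of 17 tested 3 rose (17.6%, against 7.28% of all genes) and 3 fell (17.6%, against 4.87%). SFTPD, surfactant protein D, a secreted defence protein of the alveolus (chromosome 10, 81697496 to 81708861, minus strand, build hg19), was called higher in the presence of dex and not in its absence: 0.259 FPKM with dex plus TNF and 0.042 FPKM with dex, on 144 reads with dex plus TNF and 27 with dex, and 0.024 FPKM with TNF and 0.029 FPKM with vehicle. The difference between both settings was not tested. MUC1, a membrane mucin, had 10.2 FPKM with dex plus TNF and 6.30 FPKM with dex, and 4.77 FPKM with TNF and 5.71 FPKM with vehicle. CLDN1, a tight junction protein, rose 2.52-fold. CDH1, E-cadherin, fell to 1.01 FPKM with dex plus TNF, against 1.62 FPKM with dex, and KRT18 to 980.0 FPKM with dex plus TNF, against 1421 FPKM with dex; KRT18 overlaps KRT8.

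Of 16 ion and fluid transport genes 4 rose (25%, against 7.28% of all genes) and 3 fell (18.75%, against 4.87%). SCNN1G, the gamma subunit of the epithelial sodium channel, had 0.531 FPKM with dex plus TNF and 0.200 FPKM with dex, while SCNN1A, the alpha subunit, had 0.600 FPKM with dex plus TNF and 0.978 FPKM with dex and overlaps LTBR. The water channel AQP3 fell to 18.8 FPKM with dex plus TNF, against 30.02 FPKM with dex.

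The cell cycle, metabolic and stress lists are read against the 7.28% of all genes that were higher and the 4.87% that were lower. Of 26 cell cycle genes none rose and 1 fell, CCND1, to 32.9 FPKM with dex plus TNF, against 42.9 FPKM with dex. Of 24 cholesterol synthesis genes only INSIG1 was called, lower at 0.768 of the dex level. Of 23 hypoxia and glycolysis genes none rose and 3 fell, the glucose transporters SLC2A1 and SLC2A3 and the regulator PFKFB3, at 0.549, 0.592 and 0.680 of the dex level, and these 3 were 13.0% of the list. Among 20 genes of the unfolded protein response and amino acid stress 1 rose, XBP1 at 1.62-fold, and 3 fell. Of 20 targets of the antioxidant factor NRF2 5 rose (25%) and none fell, led by GCLC, an enzyme of glutathione synthesis, at 1.92-fold. Of 23 p53 targets 5 rose (21.7%) and 1 fell (4.35%), and the leading risers FAS and TNFRSF10B are also death receptors. Among markers of other cell types 1 of 7 tested was called, the integrin ITGAM, at 0.075 FPKM with dex plus TNF and 0.022 FPKM with dex.

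Set against the response to TNF without dex, the response with dex had fewer calls. The number of calls also depends on depth and on the spread between replicates, which pooled columns do not show. It is therefore no measure of the size of a response, and the shares in common carry the same limit. TNF against vehicle gave 1616 higher (11.8%) and 1509 lower genes (11%) of 13723 tested. Both comparisons could be made for 13498 genes, with no sample in common. Of the 966 genes higher with dex, 770 (79.7%) were also higher without dex, and these were 48.8% of the 1578 higher without dex. Of the 641 lower with dex, 405 (63.2%) were also lower without dex, 27.7% of the 1464 lower without dex. Across these genes, which are no independent replicates, the log2 fold changes of the authors' deposited table had a Pearson r of 0.814.

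**Figure D5:**
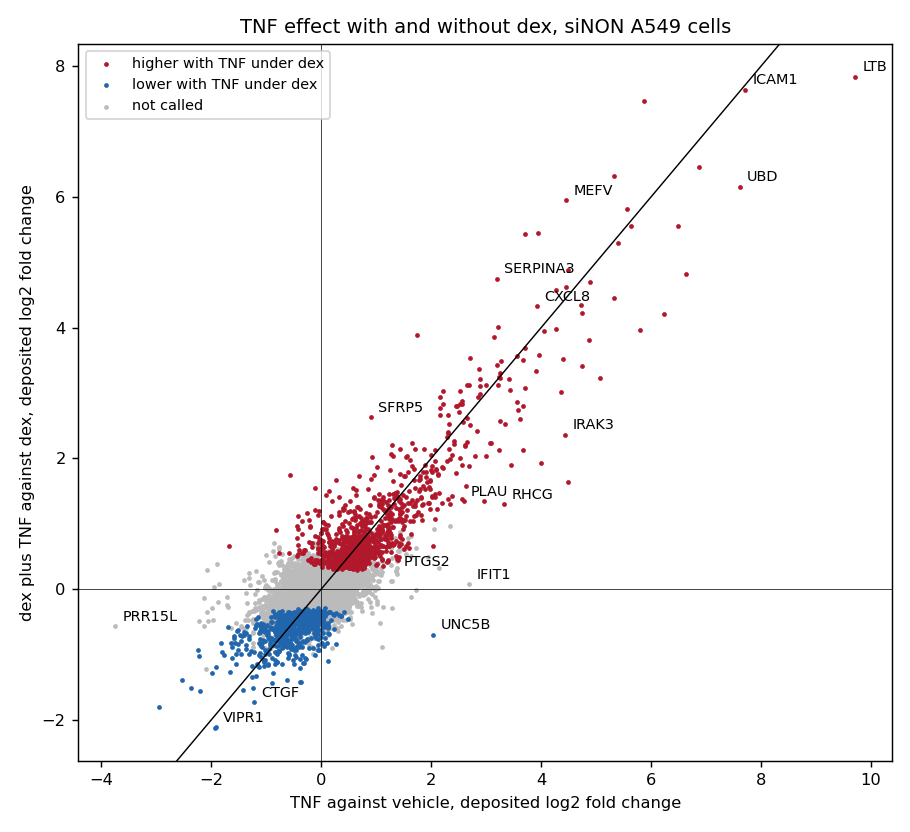
Deposited log2 fold change of dex plus TNF against dex (vertical axis) against that of TNF against vehicle (horizontal axis) for 13498 genes tested in both, coloured by the call with dex; the diagonal marks equal changes. ICAM1 lies near the diagonal, SERPINA3 and SFRP5 above it, and IRAK3, RHCG and IFIT1 below it.

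Among the TNF-induced genes of the siIRF2BP2 cells (677 with a log2 fold change of at least 1, 4.88% of the genes tested there), 585 were tested in both siNON comparisons. In the authors' deposited table their median log2 fold change was 0.92 with dex and 1.22 without dex, and the median difference per gene was -0.27, against 0.01 over all genes. The difference was at most -1 in 44 of the 585, at least 1 in 9, and in between in 532. In 409 the FPKM was lower with dex plus TNF than with TNF, 260 of them called lower (background 8.8%), while 84 were called higher (background 10.9%). The set was chosen by the response to TNF without dex in siIRF2BP2 cells. That choice favours genes with a larger response without dex, so a median difference below 0 may come partly from it. With pooled columns none of these differences between responses has a replicate error, so they are descriptions.

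The genes with the largest loss of response included interferon-stimulated and cytokine genes and others already high with dex. IFIT1 had 0.242 FPKM with dex plus TNF and 0.222 FPKM with dex, and 1.03 FPKM with TNF and 0.170 FPKM with vehicle. IL23A, a subunit of interleukin-23, had 45 reads with dex plus TNF and 12 with dex, below the level tested, and 8.03 FPKM with TNF and 0.115 FPKM with vehicle. OLR1, a receptor for oxidised lipoprotein, had 0.256 FPKM with dex plus TNF and 0.014 FPKM with dex, and 1.38 FPKM with TNF and 0.019 FPKM with vehicle. RHCG, an ammonia channel, had 16.1 FPKM with dex plus TNF and 7.09 FPKM with dex, and 8.66 FPKM with TNF and 0.921 FPKM with vehicle. Its fold was smaller with dex (2.27 and 9.40) while its level was highest with both agents, as for IRAK3 and SCNN1G. SCNN1G was below the level tested without dex, at 0.011 FPKM with TNF and 0.001 FPKM with vehicle, so its fold without dex is imprecise. UNC5B, a netrin receptor, was called in opposite directions, lower at 0.078 FPKM with dex plus TNF and 0.129 FPKM with dex, and higher at 0.049 FPKM with TNF and 0.013 FPKM with vehicle.

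At the other end, with the highest difference, lay mostly genes that were called lower with TNF in the absence of dex and not called lower in its presence. SFRP5, described above, was also among them and was not called without dex. PRR15L had 1.57 FPKM with dex plus TNF and 2.34 FPKM with dex, which was not called, and 0.035 FPKM with TNF and 0.533 FPKM with vehicle. CYP1B1, an enzyme that oxidises steroids and aromatic compounds, had 4.75 FPKM with dex plus TNF and 5.51 FPKM with dex, and 2.80 FPKM with TNF and 11.03 FPKM with vehicle. The metalloprotease ADAMTS15, the ephrin receptor EPHB3, ATOH8, CXXC4 and ANKS4B were likewise not called with dex, and without dex TNF lowered them to between 0.212 and 0.250 of vehicle. Their levels with dex alone differed: EPHB3 and ANKS4B were already low, at 0.207 and 0.459 of vehicle. ADAMTS15, ATOH8 and CXXC4 stood at 2.21, 3.48 and 1.04 of vehicle. JPH2, a junctophilin, and NANOS1, an RNA-binding protein, were called in opposite directions. JPH2 had 0.282 FPKM with dex plus TNF and 0.188 FPKM with dex, and 0.009 FPKM with TNF and 0.032 FPKM with vehicle. NANOS1 rose 1.81-fold with dex and had a ratio of 0.530 without it.

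The same contrast in siIRF2BP2 cells, on other samples, had more calls, 2741 higher (19.8%) and 2174 lower (15.7%) of 13837 tested. Here too the number of calls depends on the unseen spread between replicates, so more calls do not show a larger response. Whether the response to TNF differs between siNON and siIRF2BP2 cells was not tested. Of the 986 genes higher in siNON cells and tested in both, 948 (96.1%) were also higher there, 35.2% of the 2692 higher in siIRF2BP2 cells. Of 656 lower genes 567 (86.4%) were also lower there, 26.7% of the 2121, and 3 genes had opposite calls. All 15 named rises were higher and all 15 named falls lower in siIRF2BP2 cells. Of the 137 dex-induced genes that TNF lowered in siNON cells, 129 were lower there too and none was higher, and of the 67 that it raised 66 were higher. The genes were called dex-induced with the siIRF2BP2 dex column, which stands in this contrast as well, so those 2 counts are no independent repeat.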

How the data were processed

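RNA of A549 cells was read out as poly(A) sequencing, and the samples were grouped by their labels. Per the submitters' processing notes, FastQC, Trimmomatic 0.33, HOMER, Bowtie2, TopHat2 and edgeR are listed with build hg19, and which step each served is not stated. Per the file headers the deposited values are FPKM, 1 column per group of 3 pooled samples, with the authors' log2 fold changes, p-values and FDR per comparison. The test behind the deposited p-value is not given in the sources used here. FPKM times length gave whole reads for 100% of the low values checked, which gave the tags per column.

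From the 48118 transcripts, 1 per symbol was kept, that with the highest mean of FPKM times length over the 8 columns. A gene was tested with a CPM (FPKM times length in kilobases) of at least 1 in either column. No test was run here: calls are the deposited FDR under 0.05. Pandas 2.3.3 and numpy 2.4.6 were used, and the steps were tested on simulated data. The genes named are IRF2BP2; the 15 largest rises and falls with a CPM of at least 5, without non-coding names; up to 6 called and 3 other members per list; the 10 largest rises and falls among dex-induced genes; and the 10 lowest and highest differences between the TNF responses. The comparison, the 29 lists and the named-gene rule were chosen with earlier results of these data known, and the TNF-induced set was added after the values were seen. Ratios are of pooled FPKM without a pseudocount. Counting intervals cover counting error only. Some members of the lists are not reported here.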

Additional observations from a re-analysis of the deposited data

How the results depend on the processing

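The main counts were 996 higher and 666 lower genes, and 137 lower and 67 higher dex-induced genes. Counts stayed within 1.5 times of these in 20 of 38 alternatives, among them no filter, a CPM of at least 5, the transcript with the highest FPKM, and centring on the median. An FDR of 0.01 left 440 lower genes. Requiring a log2 fold change of at least 1 left 356, 78, 34 and 29 in the same order. A log2 ratio of at least 1 without the FDR gave 189, 23, 12 and 18 with 0.1 added to the FPKM and 67, 6, 5 and 11 with 1 added. Among dex-induced genes, choosing them in siNON cells, which share the dex column, left 44 higher, any significant dex rise gave 296 lower and 227 higher, and the written list gave 9 lower and 3 higher. With 1 added to the FPKM, or 0.1, more dex-induced genes were higher than lower, and the cause was not tested. No paired analysis was possible because the A549 columns pool the replicates, and for the same reason no sample could be left out. Pooled depth limits genes of few reads, such as LTB and VIPR1, and intervals do not cover differences between cultures.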

Other observations

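In siNON cells 8 genes were called higher with TNF in the presence of dex and lower with TNF in its absence, and 6 the other way. The 8 include AXIN2, a scaffold and feedback gene of Wnt signalling, at 0.371 FPKM with dex plus TNF and 0.223 FPKM with dex, and at 0.397 FPKM with TNF and 0.581 FPKM with vehicle. They also include HS6ST1, a heparan sulphate sulphotransferase, at 1.19 FPKM with dex plus TNF and 0.857 FPKM with dex, and at 0.583 FPKM with TNF and 0.965 FPKM with vehicle. The 6 include KITLG, the ligand of the receptor KIT, at 0.427 FPKM with dex plus TNF and 0.551 FPKM with dex, and at 0.259 FPKM with TNF and 0.211 FPKM with vehicle. They also include the nuclear receptor NR4A1, at 13.2 FPKM with dex plus TNF and 18.3 FPKM with dex, and at 18.3 FPKM with TNF and 14.9 FPKM with vehicle. The falls of NR4A1 and KITLG with dex were close to the threshold (FDR 0.048 and 0.038 in the authors' deposited table). In siIRF2BP2 cells NR4A1 was called higher with dex plus TNF than with dex (deposited log2 fold change 0.33, FDR 6.8e-05). AXIN2, HS6ST1 and KITLG were chosen after their values were seen, and the difference of the responses was not tested.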
